A study of Mus musculus with 9 samples.

Results

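In mouse embryonic fibroblasts (MEFs), 11357 chromatin sites were called accessible in both lists from siRNA-transfected cells and in neither list from untransfected cells. The sites were chosen by their peak calls: peaks of 4 lists on chromosomes 1 to 19 were merged wherever they overlapped or touched, and a merged site was kept when it held a peak from the non-targeting (NT) siRNA list and the H2A.Z siRNA list but none from the WT or untransfected Anp32e null list. They made up 9.06% of 125387 merged sites. The opposite pattern, a call in both untransfected lists and in neither siRNA list, held for 2834 sites, or 2.26%. Since presence and absence of a peak defined the group, both counts are descriptions, and no value below tests that difference.

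ATAC-seq uses the Tn5 transposase to insert adapters into open chromatin, so that stretches rich in inserted fragments mark accessible regulatory DNA. H2A.Z is a histone variant found around transcription starts and at enhancers, and ANP32E is a chaperone that removes it from nucleosomes. Away from promoters, accessible sites in fibroblasts often carry motifs of AP-1, a dimeric factor that responds to growth and stress signals, or of CTCF, a zinc-finger protein that binds insulators and the anchors of chromatin loops.

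All 9 libraries came from MEFs at a passage below 8. WT MEFs and untransfected Anp32e null MEFs contributed 3 libraries each. The siRNA groups were also Anp32e null: 1 library came from cells given a non-targeting pool and 2 libraries from cells given a pool of 4 siRNAs against H2A.Z, both delivered with Lipofectamine RNAiMax. The question addressed by the siRNA groups was whether accessibility gained without ANP32E needs H2A.Z. The libraries of a group had been merged before peak calling, so every group was 1 list without replicate values, and all differences below lack a replicate check. Between siRNA-transfected and untransfected cells, transfection cannot be told apart from library preparation or any other property that the siRNA libraries share.

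The lists held between 80433 (null) and 105816 (H2A.Z siRNA) peaks on these chromosomes. Their genome-wide backgrounds, which scale with depth, were 3.88 fragments for NT siRNA, 5.12 for null, 8.85 for WT and 17.8 for H2A.Z siRNA. Depth thus did not follow transfection, since the siRNA lists were the shallowest and the deepest of the 4. A peak stood within 1 kb of a transcription start of 9 of 10 fibroblast marker genes in WT and of 10 of 10 in the other lists, with Thy1 lacking one in WT. Markers of other cell types also had peaks: over the 4 lists, 4 to 5 of 7 epithelial genes, 3 to 4 of 6 endothelial, 2 to 3 of 6 macrophage and blood, 1 to 2 of 5 skeletal muscle, 2 to 4 of 6 neural and 1 to 2 of 4 pluripotent genes. Kdr and Tek, endothelial receptors, lay at percentiles 77.9 to 91.9, and Epcam, Cdh1, Krt8, Esrp1, Cdh5, Csf1r, Cd68, Des, Sox2, Tubb3 and Esrrb also had a peak in all 4 lists. Krt14, Krt5, Tie1, Emcn, Ptprc, Adgre1, Hbb-bs, Myog, Ckm, Neurod1, Gfap, Nanog and Zfp42 had none in any list. Single genes differed between untransfected and siRNA lists in both directions. The epithelial keratin gene Krt18 had no untransfected peak and lay at percentiles 29.1 in NT siRNA, 25.5 in H2A.Z siRNA. The keratin gene Krt8 lay at 21.6 in WT and 23.9 in null but at 63.9 and 68.8 in the siRNA lists, and the muscle gene Des at 12.5 and 15.9 but at 43.8 and 45.2. Epithelial Cdh1 lay at 36.8 and 38.6 but at 68.3 and 58.4 in the siRNA lists. Epcam lay at 54.2 in WT, 30.7 in null and at 50.9 and 58.2 in the siRNA lists. Esrp1 lay at 43.5 in WT, 43.9 in null and at 43.9 and 62.4 in the siRNA lists. Neural Sox2 was lower in the siRNA lists, at 67.3 and 56.8 against 47.0 and 53.2. The muscle factor gene Myod1 had a peak in null alone, at 6.50. The fibroblast genes Vim, at 72.1 and 58.1 against 44 and 54, and Fn1, at 87.7 and 86.2 against 72.8 and 75.7, were lower in the siRNA lists. Col1a2, at 47.6 and 31.7 against 53.5 and 52.0, and Col3a1, at 23.6 and 49.9 against 53.3 and 62.7, were higher in them. Thy1 lay at 5.99 in null and at 6.09 and 15.4 in the siRNA lists. For Col1a1, Pdgfra, Pdgfrb, Twist1 and Prrx1 the values of the untransfected and siRNA lists overlapped. The part of other cell types in the results was not tested.

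Windows reaching 100 bp to either side of the summits of the strongest members show what these sequences look like. Members were ranked by the lower of their fold percentiles in the NT siRNA and H2A.Z siRNA lists, where the fold is fragment pileup over local background at the summit. The first 8 windows are those of the 10 highest ranks without Sil1 and Mroh1, with and without a CTCF core, and the last 3 are the highest ranks at promoters of protein-coding genes. Each is named by the nearest protein-coding gene and given from the RefSeq copy of GRCm38, plus strand, 5′ to 3′. Capitals mark a match to the CTCF core consensus on either strand or to the AP-1 motif TGANTCA.

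Map3k1, chr13:111771308-111771508: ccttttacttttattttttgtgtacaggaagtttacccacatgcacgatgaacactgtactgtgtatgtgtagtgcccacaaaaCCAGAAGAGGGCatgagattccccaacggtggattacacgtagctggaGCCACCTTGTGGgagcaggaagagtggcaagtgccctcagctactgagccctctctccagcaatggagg

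Atp8b4, chr2:126380402-126380602: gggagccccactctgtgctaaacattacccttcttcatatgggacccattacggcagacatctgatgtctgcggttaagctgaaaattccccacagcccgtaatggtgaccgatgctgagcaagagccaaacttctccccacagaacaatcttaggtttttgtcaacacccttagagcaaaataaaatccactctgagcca

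Srsf7, chr17:80180129-80180329: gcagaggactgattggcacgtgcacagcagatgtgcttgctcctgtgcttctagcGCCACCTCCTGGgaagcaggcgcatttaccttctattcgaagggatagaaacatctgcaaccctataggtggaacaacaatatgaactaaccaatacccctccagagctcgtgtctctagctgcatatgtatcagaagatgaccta

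Mapre3, chr5:30806172-30806372: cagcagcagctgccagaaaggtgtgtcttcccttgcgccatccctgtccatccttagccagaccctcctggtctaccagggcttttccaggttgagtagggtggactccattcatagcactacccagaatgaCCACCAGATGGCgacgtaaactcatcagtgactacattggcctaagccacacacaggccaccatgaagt

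Ddx46, chr13:55640616-55640816: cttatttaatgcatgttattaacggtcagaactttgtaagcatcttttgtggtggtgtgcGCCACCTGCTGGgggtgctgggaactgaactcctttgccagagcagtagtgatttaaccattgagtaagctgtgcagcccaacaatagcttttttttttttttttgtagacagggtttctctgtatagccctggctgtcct

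Cdk15, chr1:59316752-59316952: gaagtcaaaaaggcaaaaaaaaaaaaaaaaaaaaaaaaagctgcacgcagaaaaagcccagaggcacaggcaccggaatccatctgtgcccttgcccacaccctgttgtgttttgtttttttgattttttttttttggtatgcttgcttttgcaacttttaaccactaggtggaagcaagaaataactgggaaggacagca

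Asah2, chr19:31972141-31972341: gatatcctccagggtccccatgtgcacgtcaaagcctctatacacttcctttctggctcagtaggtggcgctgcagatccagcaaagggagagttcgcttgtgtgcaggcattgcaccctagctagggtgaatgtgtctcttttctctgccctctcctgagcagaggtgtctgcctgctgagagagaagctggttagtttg

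AI481877, chr4:59096488-59096688: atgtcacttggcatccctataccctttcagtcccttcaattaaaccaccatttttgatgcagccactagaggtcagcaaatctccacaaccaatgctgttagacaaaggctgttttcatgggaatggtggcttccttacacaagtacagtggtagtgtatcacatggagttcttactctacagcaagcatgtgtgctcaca

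Abr, chr11:76577931-76578131: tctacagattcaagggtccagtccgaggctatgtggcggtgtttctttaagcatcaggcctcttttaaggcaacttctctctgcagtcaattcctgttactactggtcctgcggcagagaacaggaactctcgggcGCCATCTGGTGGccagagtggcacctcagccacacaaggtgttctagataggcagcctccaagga

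Hsd17b14, chr7:45555926-45556126: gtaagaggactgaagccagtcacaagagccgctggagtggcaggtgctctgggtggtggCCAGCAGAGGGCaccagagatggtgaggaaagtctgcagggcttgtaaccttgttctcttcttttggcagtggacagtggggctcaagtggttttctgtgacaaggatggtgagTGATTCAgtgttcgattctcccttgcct

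Slc7a4, chr16:17583216-17583416: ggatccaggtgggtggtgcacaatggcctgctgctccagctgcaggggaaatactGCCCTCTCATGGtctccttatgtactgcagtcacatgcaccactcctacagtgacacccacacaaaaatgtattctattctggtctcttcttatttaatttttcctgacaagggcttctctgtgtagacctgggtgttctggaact

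Of the 10 highest-ranked members 4 held a CTCF core, those of Map3k1, Srsf7, Mapre3 and Ddx46, and twin matches lay in the window inside Map3k1. The windows of Atp8b4, Cdk15, Asah2, AI481877 and Mroh1 held no match to either motif, and that of Sil1 held an AP-1 match but no core. Only exact matches to a consensus were counted, so a window without one can still hold a similar sequence. Of the 10 highest-ranked members at promoters 3 held a core, the windows of Abr, Hsd17b14 and Slc7a4, and the other 7 none. The Hsd17b14 window held an AP-1 match as well as the CTCF core. Part of the Map3k1 and Srsf7 windows was repeat-masked in the assembly, 39.8% and 48.3% of bases, whereas the Mapre3 and Abr windows held no masked base.

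Most of the 11357 sites were weak peaks in both siRNA lists. Their median fold percentile was 23.0 in the NT siRNA list, with quartiles of 10.8 and 38.1, and 32.1 in the H2A.Z siRNA list, with quartiles of 18.1 and 47.0. Sites called in all 4 lists had medians of 65.1 and 71.3. In fragments at the summit, the members had medians of 26 (NT siRNA) and 93 (H2A.Z siRNA), against 85 and 339 at sites of all 4 lists. A weak peak was thus typical, but 170 members lay above percentile 75 of the NT siRNA list and 224 above percentile 75 of the H2A.Z siRNA list. Above percentile 90 there were 15 members in each.

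**Figure D1:**
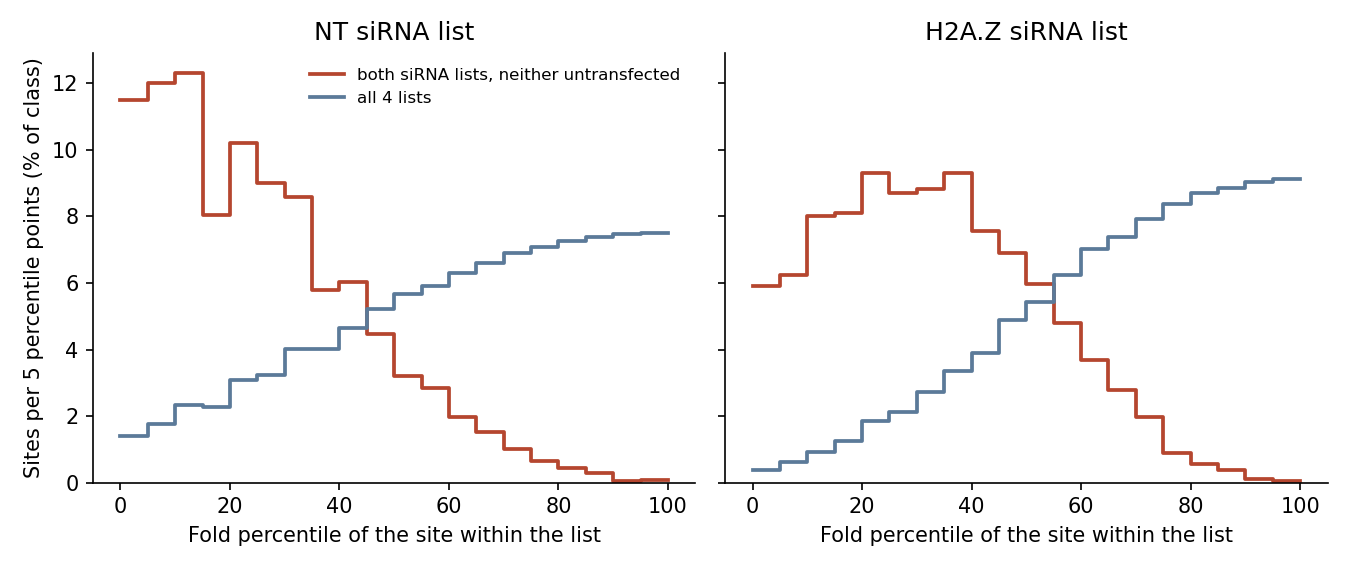
Distribution of fold percentiles within the NT siRNA list (left) and the H2A.Z siRNA list (right), as the percentage of each class per 5 percentile points. Red lines are the 11357 sites of both siRNA lists and neither untransfected list, with medians of 23.0 and 32.1, and blue lines are the 57522 sites of all 4 lists, with medians of 65.1 and 71.3. Steps in the left panel follow whole numbers of fragments.

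The share of members among sites of both siRNA lists followed peak strength. Between percentiles 0 and 20 of the NT siRNA list, 4983 of 12564 such sites (39.7%) had no peak in either untransfected list. From percentile 40 to 60 the share was 11.2%, and above percentile 80 it was 0.563%, or 98 of 17419 sites.

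The calls of the siRNA lists coincided closely within a member. Of the 11357, 11231 (98.9%) held 1 peak from each list. The summits lay a median of 35.0 bp apart, and 58.5% were within 50 bp of each other. In 63.4% the NT siRNA peak lay wholly inside the H2A.Z siRNA peak, which was the wider in 84.4%. Median member width was 523 bp, against 936 bp for sites of all 4 lists, and the members together covered 6.81 Mb. The nearest untransfected peak was a median of 5.41 kb away. It lay within 1 kb of 1273 members (11.2%) and within 10 kb of 74.4%.

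The highest-ranked member lay in an intron of Map3k1, a kinase upstream of JNK signalling (ENSMUSG00000021754.17, chr13:111771115-111771667, 36.9 kb from the nearest start). It had 95 fragments at a fold of 19.7 in NT siRNA, percentile 98.2, and 280 fragments at a fold of 14.9 in H2A.Z siRNA, percentile 93.4. The nearest untransfected peak was 16.4 kb away. Map3k1 therefore held a peak above percentile 90 of each siRNA list with no untransfected call close by.

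The member inside Sil1, a nucleotide exchange factor of the ER chaperone BiP, had folds of 16.4 and 14.8 in NT siRNA and H2A.Z siRNA. The intronic member of Atp8b4, a phospholipid-transporting ATPase, had 16 and 16.7 (chr2:126379933-126380764). A member 26.6 kb from the start of Srsf7, a splicing factor, lay in an intron of the neighbouring gene Galm and had 17.6 and 13.5 (chr17:80180079-80180534). Among these, only Atp8b4 had the higher fold after H2A.Z siRNA, and its log2 ratio relative to list background was nevertheless below 0, at -0.17. An intergenic member 8.37 kb upstream of Mapre3, which encodes a microtubule end-binding protein, had folds of 18.3 and 13.4 (chr5:30806056-30806710). The member inside Ddx46, an RNA helicase of the spliceosome, had 16.1 and 13.2 (chr13:55640490-55641075). The largest NT siRNA fold of any member, 20.5, belonged to an intergenic member 89.2 kb from Asah2, the neutral ceramidase, where H2A.Z siRNA gave 13 (chr19:31972139-31972451). The remaining 3 of the highest 10, inside Cdk15, AI481877 and Mroh1, had NT siRNA folds of 14.8 to 16.8 and H2A.Z siRNA folds of 12.9 to 14.3. None of the 10 overlapped the promoter window of an annotated protein-coding transcript.

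The strongest members at protein-coding promoters were a step weaker. The first lay at a start within Abr (chr11:76577561-76578350, summit 0.304 kb upstream of that start), and had folds of 15.1 with NT siRNA against 12.2 with H2A.Z siRNA. Hsd17b14, a hydroxysteroid dehydrogenase, had 12.2 and 10.3 (chr7:45555741-45556473), and Slc7a4, of the cationic amino acid transporter family, had 13.7 and 9.88 (chr16:17582984-17583470). Pipox, a peroxisomal oxidase of pipecolic acid, had 11.1 and 10.6, with its summit 0.0490 kb upstream of the start and the nearest untransfected peak 20.4 kb away. Asgr1, a subunit of the hepatic asialoglycoprotein receptor, had folds of 9.92 and 9.36. Grm4, a metabotropic glutamate receptor, had 10.3 and 7.78. Dap3, a mitochondrial ribosomal protein, had 10.3 and 11.2. Vps53, a subunit of the GARP tethering complex, had 10.1 and 11.2. The members at starts of Rgs12 and Nt5c2 had NT siRNA folds of 9.51 each and H2A.Z siRNA folds of 8.01 and 7.64. In this set of 10 only Dap3 and Vps53 had a higher fold after H2A.Z siRNA, and relative to list background their log2 ratios were -0.13 and -0.01.

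**Figure D2:**
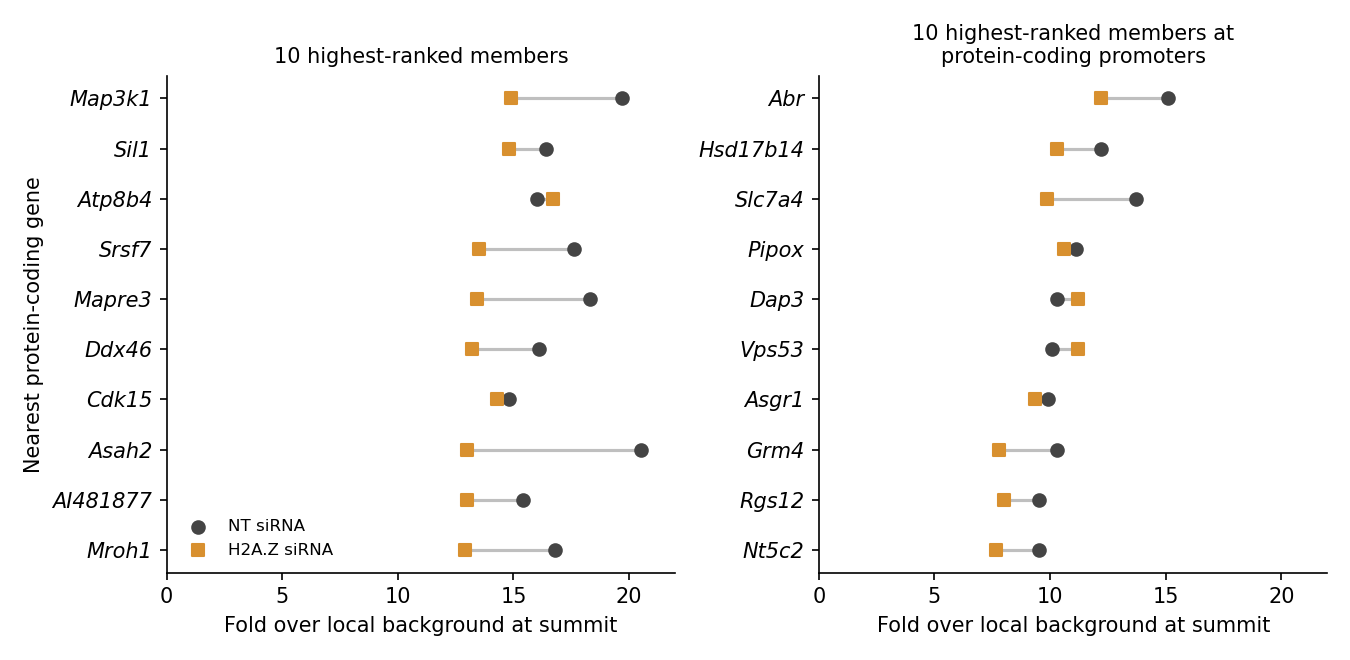
Fold over local background at the summit, as deposited, in NT siRNA (grey circles) and H2A.Z siRNA (orange squares) for the 10 highest-ranked members (left) and the 10 highest-ranked members at protein-coding promoters (right), named by nearest protein-coding gene. No untransfected peak exists at these sites, so no untransfected value is plotted. The fold was higher in NT siRNA at all but Atp8b4 on the left and all but Dap3 and Vps53 on the right, whereas log2 ratios relative to list background were below 0 at all 20.

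Most members lay well above the calling threshold of the siRNA lists. The lowest −log10 q of any peak was 1.31 in each siRNA list. Across members, the lowest was 1.37 with NT siRNA against 1.35 with H2A.Z siRNA, the first quartiles were 5.09 and 12.7, and the medians 8.54 and 24.5. The lowest ranks belonged to peaks on a high local background, as inside Egr1, an immediate early transcription factor, where 284 NT siRNA fragments gave a fold of only 1.55 and the nearest untransfected peak lay 0.555 kb away. Near Tns2 and Nab2, the other lowest ranks, NT siRNA folds were 2.18 and 1.70 and H2A.Z siRNA folds 1.29 and 1.28. Just outside the rule, a site near Rd3 was kept out by a WT peak with a −log10 q of 1.31 and 26 fragments. A site near Zfp664 was kept out by a WT peak at 1.32 with 21 fragments, and one near Arid5b by a null peak at 1.35 with 13 fragments.

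For each member, enrichment in a siRNA list was carried over to the depth of an untransfected list, as a description of how strong the members were. From NT siRNA enrichment, with pileup and local background multiplied by the ratio of null to NT siRNA background, 1.32, each of the 11357 lay above the lowest −log10 p of the null list, 3. This was fixed by the rule, since members had to be called in the shallower NT siRNA list. With H2A.Z siRNA enrichment instead, 93.7% lay above it at null depth (95% Wilson interval 93.2 to 94.1%) and 98.5% at WT depth (98.3 to 98.7%). These intervals, like all below, cover counting error only. The calculation assumes that enrichment over background carries over between lists, and the lists differed in that measure: at the 57522 sites of all 4 lists, median log2 enrichment was 0.86 higher in NT siRNA than in null and 1.51 higher than in WT. When each member was also divided by the ratio of its own chromosome at those sites, 66% of members (65.2 to 66.9%) lay above the threshold at null depth and 36.2% (35.3 to 37.1%) at WT depth. From H2A.Z siRNA enrichment, the same scaling gave 55.3% (54.4 to 56.2%) and 29.3% (28.4 to 30.1%). This scaling was chosen after the data had been seen. The absence of untransfected peaks was the rule itself, so these shares are no test of it. The part of the general difference in enrichment in the missing calls was not tested. Because members had to be called in both siRNA lists, their siRNA values were also selected upwards.

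Within the members, enrichment tended to be lower after H2A.Z siRNA than after NT siRNA. Each summit pileup was expressed relative to its list's background, and the log2 of H2A.Z siRNA over NT siRNA was taken. The median was -0.35, with quartiles of -0.64 and -0.05, and 2424 members (21.3%) were above 0. At the 68342 sites of both siRNA lists that also had an untransfected peak, the median was -0.26 and 25.4% were above 0. A ratio of -1 or less was reached by 853 members (7.51%), against 4.85% of all 79699 sites of both siRNA lists. A ratio of 1 or more was reached by 24 members (0.211%), against 0.364%. The lower median therefore belonged to all sites of these lists, with members 0.09 below the others. Divided instead by the median pileup of each list at sites of all 4 lists, the member median was -0.15. With the highest 80433 peaks by −log10 p taken from each list, members had a median of -0.26 and the other sites -0.25.

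The ratio was lower where NT siRNA strength, which enters the ratio itself, was higher. In 5 equal bins of members by NT siRNA percentile, from weakest to strongest, medians were -0.20, -0.30, -0.37, -0.43 and -0.49. The other sites, in the same strength ranges, had -0.06, -0.16, -0.19, -0.23 and -0.29. Members thus had the lower median in each of the 5 ranges. Promoter members and the rest differed little, with medians of -0.31 and -0.36, and 5 bins by GC content lay between -0.32 and -0.37.

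Members were mostly distal. A window of 1 kb on either side of an annotated start was overlapped by 1473 members (13%, interval 12.4 to 13.6%), against 20.7% of all merged sites and 30.7% of sites of all 4 lists. Both other classes with missing calls resembled the members: the share was 14.9% for sites of both untransfected lists and neither siRNA list, and 12% for sites of every Anp32e null list and not WT. Summits fell in introns for 6326 members (55.7%), in exons for 8.51% and between genes for 35.8%. The distance to the nearest protein-coding start had a median of 19.5 kb, with 27.0% of members at 1 to 10 kb. Among sites of both untransfected lists and neither siRNA list, that median was 42.5 kb and 15.5% lay at 1 to 10 kb. Close to the start the order was the other way: 3.99% of members and 8.26% of the opposite pattern had a summit within 1 kb of a protein-coding start, and 5.07% and 9.32% overlapped a protein-coding promoter window.

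Base composition set members slightly apart from the opposite pattern. Median GC content of the windows was 49.3% (quartiles 44.8 and 53.7), against 48.8% in all merged sites, 50.2% in sites of all 4 lists and 46.3% in sites of both untransfected lists alone. An observed-over-expected CpG ratio of 0.6 or more, as in CpG islands, was found in 2.78% of members and in 21.9% of sites of all 4 lists. Windows that were over 50% repeat-masked made up 6.89% of members, 7.76% of the opposite pattern, 5.57% of sites of every Anp32e null list and not WT and 5.25% of all merged sites. The figure was 3.02% among the other sites of both siRNA lists and 3.98% when these were weighted to the members' distribution over 5 bins of GC content by 5 bins of NT siRNA strength. In the same weighting, the promoter share of the other sites was 19.7%, above the 13% of members.

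Matches to the CTCF core were more common in members than in the sites compared with them. They occurred in 1129 member windows (9.94%, interval 9.40 to 10.5%), against 5.36% of all merged sites, 5.20% of sites of all 4 lists, 6.65% (6.08 to 7.26%) of sites of every Anp32e null list and not WT, and 4.47% of the other sites of both siRNA lists after weighting for GC content and strength. The share was higher at stronger members. In the 5 bins by NT siRNA percentile it was 5.72%, 6.14%, 9.43%, 10.7% and 17.3% (15.8 to 19% in the strongest), and in the other sites of the same ranges 2.01%, 3.64%, 4.21%, 5.55% and 6.20%. Among the highest-ranked 1000 members 226 windows (22.6%) held the core. One further class matched the members: sites of WT and both siRNA lists but not null had 10.6% (9.69 to 11.6%). The mirror pattern, called in both untransfected lists alone, had 4.13%, sites of the H2A.Z siRNA list alone 5.17% and sites of the NT siRNA list alone 3.24%.

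The members with a CTCF core were described further. Their median NT siRNA percentile was 33.4 and their median H2A.Z siRNA percentile 41.5. A ratio of -1 or less was reached by 2.57% of them, against 8.06% of members without the core, although the medians of -0.33 and -0.35 were alike. Within each of the 5 strength ranges, members with the core had the higher median, from -0.15 against -0.20 in the weakest to -0.45 against -0.49 in the strongest. At the other sites of both siRNA lists, the median was -0.39 with the core and -0.25 without it, and 2.22% and 4.54% reached -1 or less. The core lay a median of 35.5 bp from the summit, the same as in all merged sites with one. In 349 of the 1129 members (30.9%) the core was wholly repeat-masked, against 21.2% of all merged sites and 12.4% of the other sites of both siRNA lists that held one. A match is a description of the letters in the window, and CTCF binding was not measured here.

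AP-1 motifs showed the opposite relation. TGANTCA, searched on both strands, was present in 2828 member windows (24.9%, interval 24.1 to 25.7%), against 29.4% of all merged sites and 31.8% of the other sites of both siRNA lists, or 32.0% after weighting. Members had the lower share in each of the 5 strength ranges, with 20.6% against 27.3% in the weakest and 25.3% against 32.0% in the strongest. With equal numbers of peaks from each list the gap was smaller, 29% against 32.1%. Sites of every Anp32e null list and not WT had 33.6%, and sites of both untransfected lists alone 24.2%, close to the members. Members with the motif had a median H2A.Z siRNA over NT siRNA ratio of -0.16, against -0.41 for members without it, and 34.7% of them were above 0 against 16.9%. The difference of 0.25 was close to the 0.23 seen at the other sites of both siRNA lists, and it kept its sign in each of the 5 strength ranges of members.

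**Figure D3:**
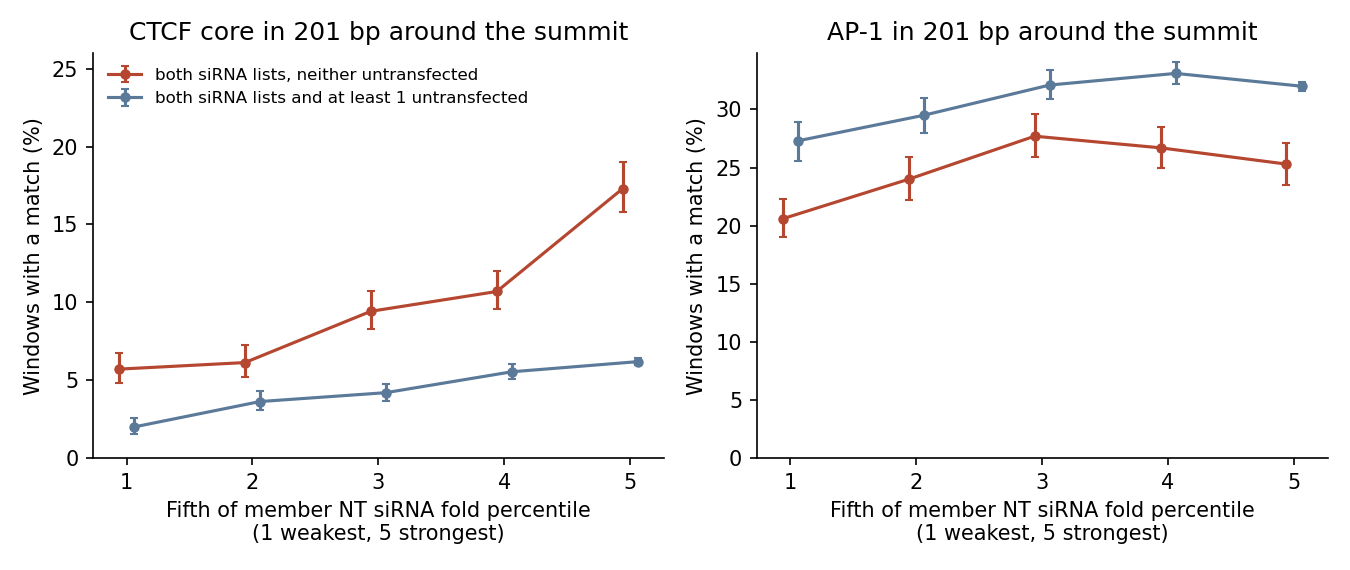
Share of windows, 100 bp to either side of the summit, with a CTCF core (left) or AP-1 motif (right) in members (red) and in the other sites of both siRNA lists (blue), by 5 bins of the members' NT siRNA fold percentile, with 95% Wilson intervals. The CTCF share of members goes from 5.72% to 17.3% and lies above the blue line throughout, whereas the AP-1 share, 20.6% to 27.7%, lies below it.

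The other 16 motifs were searched in the same way and their matches can share bases. The TEAD motif GGAATG was less common in members than in the weighted comparison, at 16.6% against 21.2%, and so were SP1 (GGGCGG, 5.19% against 8.29%), ETS (CCGGAA, 2.47% against 3.59%), CRE (TGACGTCA, 0.220% against 0.450%) and the NF-kB consensus (2.17% against 2.71%). The E-box CAGCTG was more common, at 16.8% against 14.8%. Sites of every Anp32e null list and not WT had values near those of members for SP1 (5.37%), ETS (2.30%), CRE (0.189%) and CAGCTG (16.3%), but not for TEAD (20.7%). The opposite pattern had 6.46%, 2.58% and 0.176% for SP1, ETS and CRE, 11.4% for CAGCTG and 22.5% for TEAD, so that low SP1, ETS and CRE shares were common to these classes. The weighted value lay inside the interval of the member share for RUNX (TGTGGT, 20.4% against 20.6%), NF-Y (CCAAT, 23.4% against 23.1%), C/EBP (TTGCNNAA, 8.63% against 9.08%), FOX (TGTTTAC, 2.86% against 2.93%), the E-box CACGTG (3.53% against 3.26%), SREBP (TCACNCCAC, 0.933% against 0.977%) and the octamer ATGCAAAT (1.07% against 1.02%). It also lay inside it for the CArG box (1.26% against 1.47%) and the p53 half-site (7.42% against 7.23%). For ISRE (1.86% against 2.12%) it was at the upper bound of the interval, 2.12%. In all merged sites, TEAD was present in 19.2% of windows, SP1 in 9.71%, ETS in 4.26%, CRE in 0.499%, CAGCTG in 14.4%, RUNX in 20.3%, NF-Y in 23.9%, C/EBP in 8.64%, FOX in 2.78%, CACGTG in 3.51%, SREBP in 0.988%, the octamer in 1.12%, ISRE in 2.03%, NF-kB in 2.50%, the CArG box in 1.33% and the p53 half-site in 7.05%.

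Chromosome 11 held 1181 members, 15.3% of its 7733 merged sites against 9.06% over all chromosomes. Chromosome 19 followed with 12.8%, chromosome 17 with 11.1% and chromosome 15 with 10.7%, and the lowest share was 6.25% on chromosome 3. Of the 19 chromosomes, 19 and 11 also had the lowest shares of sites called in both untransfected lists alone, 0.852% and 1.24%. The median log2 ratio of NT siRNA to null enrichment at sites of all 4 lists moved with the share of members. It was 1.28 on chromosome 11 and 1.18 on chromosome 19, against 0.70 on chromosome 3 and 0.86 over all chromosomes, with a Pearson correlation over the 19 chromosomes of 0.96 and a Spearman correlation of 0.86. Both measures use the NT siRNA and null lists, so this is a description. Null over WT was 0.44 on chromosome 11 and 0.62 over all chromosomes. Median GC content of the sites had correlations of 0.64 and 0.68 with the share of members. The part of either measure in the share of members was not tested.

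**Figure D4:**
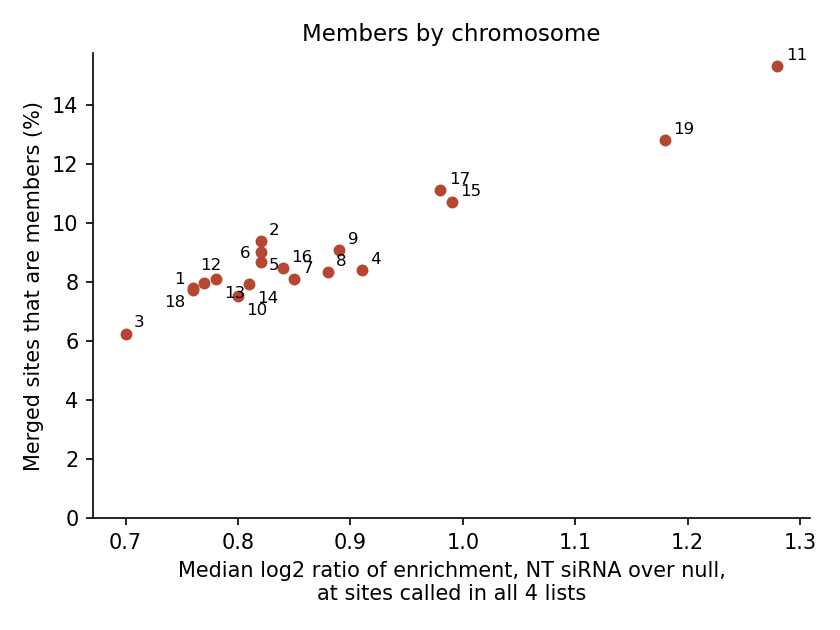
Percentage of merged sites that are members, by chromosome (numbered points), against the median log2 ratio of enrichment in NT siRNA over null at sites called in all 4 lists. Chromosomes 11 (15.3%) and 19 (12.8%) lie at the upper right and chromosome 3 (6.25%) at the lower left.

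Members of chromosome 11 were compared with those of the 17 chromosomes other than 11 and 19. Their median NT siRNA percentile was 24.8 against 23.0, and their median H2A.Z siRNA percentile 36.9 against 31.7. The promoter share was 16.2% against 12.5%, the CTCF core share 12.8% against 9.59% and median GC content 50.2% against 48.8%, so that all of these were higher on chromosome 11. An AP-1 motif was found in 25.4% and 24.9%. With chromosomes 11 and 19 left out, the CTCF share of the other sites of both siRNA lists was 5.62%. The median H2A.Z siRNA over NT siRNA ratio was -0.29 on chromosome 11 and -0.35 on the 17 others.

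Members were unevenly spread along chromosomes. Of 2311 bins of 1 Mb with a merged site, 1500 held a member and the median number was 2. The bin with most, chr11:97000001-98000000, held 48 members among 161 sites (29.8%), with 7 nearest to Srcin1 and 4 each nearest to Arhgap23, Plxdc1 and Tbkbp1. Next came chr10:80000001-81000000 with 45 of 206, where 5 were nearest to Tmprss9, and chr2:31000001-32000000 with 40 of 152, where Fnbp1 had 8 and Hmcn2 7. The chr17:27000001-28000000 bin also held 40 of 152, and chr17:24000001-25000000 held 39 of 154. In these 5 bins, NT siRNA enrichment at sites of all 4 lists exceeded null by a median log2 ratio of 2 to 2.36, against 0.86 over all chromosomes. These bins thus also had high ratios of NT siRNA to null enrichment at sites which were no members.

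The members were nearest to 5812 protein-coding genes, of which 3320 had 1 member and 419 had 5 or more. Lpp, a focal adhesion protein, had most, with 23 of its 116 sites, all inside a gene. Cited2, a transcriptional coregulator, had 19 of 84 at 160 to 1090 kb from its start. The polarity gene Pard3 had 17 of 63, and Zfp36l1, which destabilises AU-rich mRNAs, had 17 of 71. The other genes of the top 8 were the splicing regulator Rbfox2 with 16 of 54, the recombination gene Rad51b with 15 of 46, Thbs1, which encodes the matrix protein thrombospondin, with 15 of 66, and the transcription factor Runx1 with 15 of 67. Each of these shares, 19.8% to 32.6%, was above the 9.06% of all sites, but the genes were picked for their number of members. Their strongest members were moderate: the lower of the siRNA percentiles was 66.2 for the Lpp member (chr16:24537815-24538782), 70.6 for Cited2, 67.8 for Rbfox2 and 44.3 for Runx1.

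Across 17 gene lists, sites nearest to genes of most lists were members about as often as sites in general. For DNA replication and cell cycle genes it was 29 of 322 sites (9.01%), for p53 targets 21 of 222 (9.46%), for TGF-beta signalling 75 of 787 (9.53%) and for AP-1 and immediate early genes 61 of 616 (9.90%), beside 9.06% of all merged sites. The lists with the highest shares were H2A.Z, ANP32 and H2A.Z remodeller genes with 20 of 105 (19%, interval 12.7 to 27.6%), contractile and SRF targets with 62 of 409 (15.2%, 12 to 19%) and lysosome and autophagy genes with 26 of 186 (14%, 9.72 to 19.7%). Interferon response genes were lowest with 2 of 137 (1.46%, 0.401 to 5.17%). Neural lineage factors had 12 of 217 (5.53%), and the remaining lists lay between 7.94% and 11.9%. Almost all of these members lay away from the start of the gene: none was at a promoter in the interferon, AP-1, p53, lysosome, cell cycle, adipogenic, neural or H2A.Z lists, and 3 were in each of the TGF-beta and NF-kB lists.

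**Figure D5:**
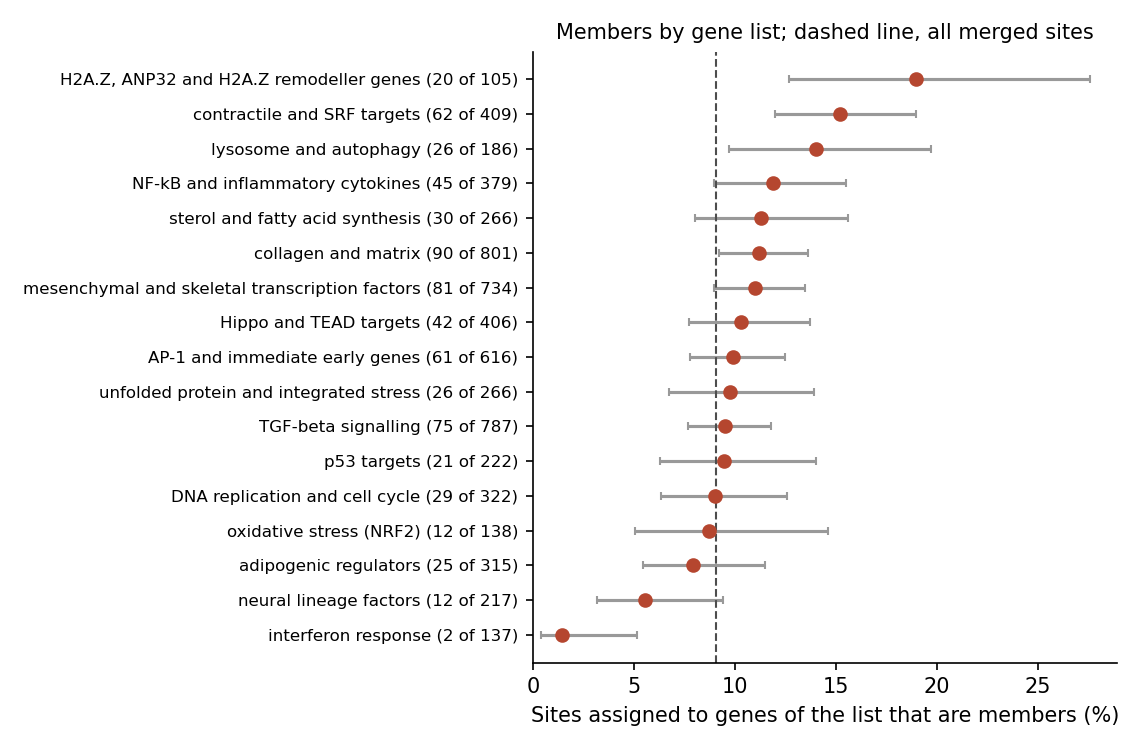
Percentage of the merged sites nearest to genes of each list that are members, with 95% Wilson intervals and, in brackets, members of all sites. The dashed line is 9.06%, the share over all merged sites. H2A.Z, ANP32 and remodeller genes (19%) and contractile and SRF targets (15.2%) lie to its right and interferon response genes (1.46%) to its left.

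Among the H2A.Z, ANP32 and remodeller genes, Anp32e itself had 4 of 9 sites as members and Ino80, the ATPase of the INO80 complex, 4 of 6. The H2A.Z genes H2afz and H2afv had 1 member each. The strongest member of the list lay 13.3 kb upstream of Kat5, the acetyltransferase of the TIP60 complex (chr19:5623179-5623647), with 65 fragments at a fold of 11.5 with NT siRNA and 277 at 9.95 with H2A.Z siRNA. An intronic member of Ep400, the motor subunit of that complex, had 44 and 152 fragments (folds 9.22 and 8.13). The 20 members of this list were nearest to 13 genes, of which Anp32e and Ino80 had the most.

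In the contractile list, Mrtfa and Cald1 had 8 members each, and Vcl and Filip1l 7 each. The strongest lay 19.8 kb upstream of the smoothelin gene Smtn (chr11:3560152-3560587) and had 60 fragments with NT siRNA against 155 with H2A.Z siRNA, a log2 ratio of -0.83. An intergenic member 66.7 kb from the tropomyosin gene Tpm1, with a CArG box in its window, had 43 and 182 fragments and a ratio of -0.12. In the lysosome list, Uvrag and Mitf had 6 members each, and their strongest had 38 and 177 fragments and 39 and 92 fragments.

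Inflammatory and growth factor genes held members of middle strength. A member 7.48 kb upstream of Csf2, which encodes the cytokine GM-CSF, had 55 fragments with NT siRNA against 175 with H2A.Z siRNA (chr11:54256792-54257272). Near Lif, another cytokine, the counts were 56 and 277, one of few named members with a ratio above 0, at 0.11. Of the interferon list, members lay near Cxcl10, with 34 and 95 fragments, and near Oasl2. Among AP-1 genes, a member 23.6 kb from Batf had 58 and 226 fragments and one upstream of Fosl2, inside Babam2, had 95 and 501, a ratio of 0.20. The Fosl2 member held an AP-1 motif in its window and the Batf member did not.

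For signalling and matrix genes, the strongest members were an intronic one in Smad3, a mediator of TGF-beta receptors, with 75 and 248 fragments, one near the collagen cross-linking enzyme Loxl1 with 48 and 152, and one near Col6a3 with 72 and 323. The Hippo list gave a member 35.0 kb from Ccn2, a secreted target of YAP, with 44 and 165 fragments, and one inside Wwtr1, which encodes TAZ, with 50 and 121. Their ratios, -0.29 and -0.92, lay on opposite sides of the member median. Members of Meox1, a mesodermal homeobox factor, stood 10.9 kb upstream and 0.102 kb upstream of its start, with 67 and 211 and with 43 and 144 fragments.

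Among metabolic and stress genes, the member with the most fragments lay 34.6 kb from Scd1, a fatty acid desaturase, and had 96 with NT siRNA against 279 with H2A.Z siRNA (chr19:44372893-44373242), and its window held a CTCF core. A member at a start of Acaca, acetyl-CoA carboxylase, had 71 and 122 fragments and the lowest ratio of the named members, -1.42. Pparg, the adipogenic nuclear receptor, followed at -1.03 with 37 and 83 fragments, and Plin2, of lipid droplets, had the highest at 0.43 with 36 and 222. The remaining lists gave members of similar size. Xbp1, of the unfolded protein response, had 42 and 158 fragments at 1 site and 42 and 148 at another. A member near Nfe2l2, the regulator of antioxidant genes, had 36 and 90, and one near Ugdh had 30 and 131. Those near the p53 targets Fas and Cdkn1a had 51 and 146 and 36 and 144. Members near the cyclin genes Ccnb2 and Ccnd1 had 49 and 178 and 36 and 121, and those near the neural genes Map2 and Neurod2 had 34 and 88 and 36 and 145. In all of these the fragments in H2A.Z siRNA were fewer than the 4.59-fold higher background of that list would give at equal enrichment, apart from Plin2.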

How the data were processed

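ATAC-seq libraries of MEFs were built with a Nextera DNA Flex kit. The authors mapped reads to mm10 (GRCm38) using Bowtie2, took out PCR duplicates using Picard, and called peaks per group using MACS2, so that each group gave 1 list (WT and null from 3 libraries each, NT siRNA from 1, H2A.Z siRNA from 2). The deposited fold is the ratio at the summit of pileup to local background, each with a pseudocount of 1 added, and p and q are −log10 values computed by the authors' caller. Pileups were recovered from fold and −log10 p under the Poisson model (within 0.05 of a whole number for at least 99.995% of peaks in each list, method tested on simulated data). A list's background is its most frequent local value.

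Sites were merged (gap 0) and annotated with GENCODE M21. Promoters were 1 kb on either side of a transcript start, and each site was assigned to the nearest protein-coding start. Motifs were sought on both strands of GRCm38 (RefSeq sequence) within 100 bp to either side of the summit. Shares carry 95% Wilson intervals. Without replicate lists, no test was made.

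The sites, gene lists and 18 motifs were chosen with earlier results of these data known. Named members were the 10 highest-ranked, the 10 highest-ranked at promoters, the highest-ranked within 100 kb for each of 17 gene lists (2 where a list had 10 or more), the 8 genes and 5 bins of 1 Mb with most members, the 3 lowest-ranked members and the 3 excluded sites with the weakest untransfected peak. Windows with an annotated UTR were not printed. One member that the rule names is not reported here. Genes named by their count inside a list or bin were added after their values had been seen. Alternatives were a −log10 q of 5 or more, a merge gap of 147 bp, equal numbers of peaks, no untransfected peak within 1 kb, the H2A.Z siRNA list at NT siRNA depth, other promoter widths, scalings and windows. Python 3.11.15, NumPy 2.4.6, pandas 2.3.3, SciPy 1.17.1, pysam and matplotlib 3.10.9 were used.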

Additional observations from a re-analysis of the deposited data

Results flagged for a closer look

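Chromosome X lies outside the rule that chose the members, and it was looked at in the same way. There, 203 of 3113 merged sites (6.52%, Wilson interval 5.71 to 7.44%) had a peak in both siRNA lists and in neither untransfected list, against 61 sites (1.96%) with the opposite pattern. The share was below that of 18 of the 19 chromosomes that hold the members.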

How the results depend on the processing

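The number of members was 6791 when the 80433 peaks of highest −log10 p were taken from each list, and within 1.5 times 11357 under the other settings. The promoter share was 12.2% without members that had an untransfected peak within 1 kb, 8.97% with 500 bp windows and 5.07% with protein-coding starts alone. The median log2 ratio of H2A.Z siRNA over NT siRNA was -0.37 with a −log10 q of 5 or more, -0.26 with equal numbers of peaks, -0.30 with the H2A.Z siRNA list at NT siRNA depth and -0.15 when scaled by sites of all 4 lists. The AP-1 share was 25.9%, 29% and 26.3% under the first 3 of these settings, 30.7% in windows reaching 200 bp to either side and 23.0% around NT siRNA summits, and the CTCF core share was 11.3%, 13.6% and 10.9%, and 10.7% in the wider windows. Median GC content was 48.1% in the wider windows. The share of members above the threshold at null depth, 100% by construction from NT siRNA enrichment, was 68.1% when scaled by sites of all 4 lists, 66% when that was done by chromosome and 93.7% from H2A.Z siRNA enrichment. The cause of these differences was not tested, beyond the smaller number of sites that fewer peaks leave. The other 32 of 53 values lay within their counting interval or, for the number of members, within 1.5 times, and none changed sign. The CTCF results, the omission of chromosomes 11 and 19, the rescaled shares and the share from H2A.Z siRNA enrichment were added after seeing the data. No paired analysis was possible because the libraries of each group had been pooled into 1 list, which also left no replicate to omit.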
